A study of Mus musculus with 52 samples.

Results

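Genes of the proteasome were compared between mouse embryonic stem (ES) cell lines. The members were taken as every gene whose platform symbol was Psma, Psmb, Psmc, Psmd, Psme, Psmf or Psmg followed by a digit. This gave 42 of the 9030 genes named on the array, measured by 51 probes. The rule used only the symbol and no measured value. Of these 42 genes, 26 encode constitutive subunits of the 26S proteasome. Psmc3ip and Psme3ip1 match the symbol pattern but encode partners of a subunit or activator, not subunits. Among the subunit, chaperone and activator genes listed by role, Psma3, Psma8, Psmc1, Psmd1, Psmd3, Psmd8, Psmg3 and Psmg4 had no named probe.

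The 7 lines were labelled HM-1 NT, #4 (B6), B6NT, B6PGA, PDCUMNT, ZFCUMNT and HM-1. The series text says that the lines came from different nuclei donor sources, and that a pair of lines from cumulus donor nuclei was made by different cloning methods. Which pair that is stays unsaid, the abbreviations in the line names (NT, PGA, PD, ZF, B6) are not explained, and the labels give neither age, passage, medium nor feeder cells. Each of 13 pairs of lines was hybridised on 4 two-colour arrays, 52 in all, with the dyes swapped between arrays 1 and 2 and arrays 3 and 4. Total RNA of 20 microgram was labelled per channel. The protocol text speaks of organs and of a pool of control animals, whereas source names give an ES line for the Cy3 and the Cy5 sample alike, and those names were followed. Nothing says that the 4 arrays of a pair came from separate cultures or extracts, so the p-values measure the spread between arrays, which may be technical.

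The proteasome is the large protease that degrades proteins tagged with ubiquitin in the cytosol and nucleus. Its 20S core is a barrel of outer alpha rings, which gate the entrance, and inner beta rings, of which the Psmb5, Psmb6 and Psmb7 subunits cut peptide bonds. The 19S cap binds the barrel, and its Psmc ATPases unfold substrates while its Psmd subunits bind and deubiquitinate them. Psmb8, Psmb9 and Psmb10 replace the catalytic subunits in the immunoproteasome, which shapes peptides for antigen presentation. Psmd5, Psmd9, Psmd10 and the Psmg proteins are chaperones that help assemble the particle, Psme1 to Psme4 are activators that can take the place of the cap, and Psmf1 is an inhibitor. Subunit genes are known to be induced together by the transcription factor Nrf1 (gene Nfe2l1) when proteasome activity is low, and human ES cells are known for high proteasome activity.

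Each value below is a log2 ratio written as one line over another. All ratios were turned by the dye labels and read as Cy5 over Cy3. The numerator dye is not given in the sources used here, and if it was Cy3, the sign of every ratio turns. A ratio carries no absolute level, so whether pluripotency markers were present could not be read. In bulk RNA, fewer cells of a type and less RNA per cell cannot be told apart. A gene was called where limma's adjusted p over all features of a comparison was under 0.05. Errors are standard errors (SE) of the fit unless stated otherwise.

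The arrays had from 17620 to 20200 measured probes and medians from -0.21 to 0.47. Of the 52 arrays, turned by their dye label, 43 correlated above 0 across features with ratios predicted from the other comparisons. Over all 52 arrays r had a median of 0.045 and ran from -0.054 to 0.114. The other 9, at r from -0.054 to -0.002, are counted as against their dye label. They were arrays 3 and 4 of #4 (B6) over HM-1, of B6NT over #4 (B6) and of B6PGA over #4 (B6). Array 2 of ZFCUMNT over B6NT and arrays 1 and 3 of ZFCUMNT over HM-1 NT made up the rest. These r are so close to 0 that the split does not show that an array ran opposite to its label. True differences between lines would make deposited ratios of opposite dye orientation opposite, while a dye effect would give them the same sign. With dye effects left in, these ratios had a mean rank correlation above 0 in 12 of the 13 comparisons. It was highest in #4 (B6) over HM-1 (0.487), HM-1 NT over HM-1 (0.22), ZFCUMNT over HM-1 NT (0.164) and ZFCUMNT over HM-1 (0.103), and lowest in B6NT over #4 (B6) (-0.006). The levels fitted per line are given with and without such comparisons below. The ratios of a single comparison and of the NT contrasts come from their own arrays, apart from a dye effect and a spread estimated over all 52. Outside the line fit they could not be given without those arrays.

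Most proteasome genes were positive over HM-1 in 5 of the 6 comparisons with that line, and few passed the test one by one. The 6 comparisons with HM-1 share that line, so their values stand side by side and are not independent of each other. In HM-1 NT over HM-1, 34 of 42 members were positive with a median of 0.43, against a median of -0.05 over all 16127 features. One of the 42 was called (Psma2), where 0.254% of all features were. Unadjusted p was under 0.05 for 14 members, all positive, or 33.3% of them, against 6.41% of all features. The member median was 0.41, 0.43, 0.42 and 0.52 on arrays 1 to 4, above the all-feature medians of 0.05, 0.07, -0.12 and -0.08. Each of these 4 arrays therefore had the members above the rest, in both dye orientations.

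In PDCUMNT over HM-1, 27 of 42 members were positive and the median was 0.28, against -0.08 over all features. Both calls, Psmb2 and Psmd2, were positive, and 1.14% of all features were called. Unadjusted p was under 0.05 for 11 members (26.2%), against 11.1% of all features. In B6NT over HM-1, 32 of 41 members were positive with a median of 0.16, against 0.02 over all features, and 1 member was called (Psma2) beside 0.17% of all features. There 5 members had an unadjusted p under 0.05 (12.2%, against 5.21% of all features). In ZFCUMNT over HM-1, 32 of 39 were positive with a median of 0.18, against -0.05 over all features. No member was called by limma there, 2 had an unadjusted p under 0.05 (5.13%, against 4.82%), and 0.101% of all features were called. In #4 (B6) over HM-1, 28 of 41 were positive with a median of 0.20, against -0.03 over all features, and this median was 0.32 without array 2 and 0.09 without array 4. No member was called by limma, 8 had an unadjusted p under 0.05 (19.5%, against 3.91%), 7 of them positive, and 0.219% of all features were called. In B6PGA over HM-1 the members stood near the rest, with 21 of 40 positive and a median of 0.07 (0.02 without array 1 or 3), against -0.04. None was called by limma, 5 had an unadjusted p under 0.05 (12.5%, against 6.66%), and 0.494% of all features were called.

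The 7 comparisons without HM-1 held 2 calls, and their medians ran from -0.02 to 0.18. In HM-1 NT over B6NT, 34 of 40 members were positive with a median of 0.18, against 0.01 over all features. No member was called by limma there, 4 had an unadjusted p under 0.05 (10.0%, against 9.88%), and 1.04% of all features were called. In ZFCUMNT over #4 (B6), 29 of 39 were positive with a median of 0.18 (0.29 without array 2), against 0.08. None was called by limma beside 0.935% of all features, 6 had an unadjusted p under 0.05 (15.4%, against 13.6%), and leaving out array 3 gave 1 call and array 4 gave 2. In ZFCUMNT over B6NT, 25 of 39 were positive with a median of 0.12, against 0.06 (the member median was -0.05 without array 1), and 1 (Psmb6) was called beside 0.124% of all features. Unadjusted p was under 0.05 for 3 members there (7.69%, against 5.22%). In ZFCUMNT over PDCUMNT, 21 of 41 were positive with a median of 0.01, against 0.11, and 1 (Psme1) was called beside 0.763%, or 2 without array 2 or 4. Unadjusted p was under 0.05 for 5 members (12.2%, against 11.8%). The share of all features called without single arrays is not given here, so the changes in count cannot be set beside it. The members of the 3 remaining comparisons centred on 0. Their medians were 0.00 in B6NT over #4 (B6), -0.01 in B6PGA over #4 (B6) and -0.02 in ZFCUMNT over HM-1 NT. No member was called by limma in these, beside 0.245%, 1.22% and 0.292% of all features, and 1, 2 and 0 members had an unadjusted p under 0.05 (2.5%, 5.26% and 0%, against 4.50%, 10.2% and 8.71% of all features).

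The median of the constitutive 26S subunits was 0.53 in HM-1 NT over HM-1, with 24 of 26 positive, and 0.45 in PDCUMNT over HM-1, with 22 of 26 positive. It was 0.38 in #4 (B6) over HM-1, 0.24 in ZFCUMNT over HM-1, 0.22 in B6NT over HM-1 and 0.09 in B6PGA over HM-1. Cytosolic ribosomal protein genes, another highly expressed housekeeping list, had a median of 0.25 in HM-1 NT over HM-1, with 52 of 60 positive. In the other 5 HM-1 comparisons the ribosomal median lay between -0.09 and 0.08. The ribosomal and proteasome medians were both positive in HM-1 NT over HM-1 and in HM-1 NT over B6NT (ribosomal 0.26). The same held in ZFCUMNT over #4 (B6), with a ribosomal median of 0.22 and 45 of 59 positive. Both were above 0 as well in ZFCUMNT over B6NT and B6PGA over HM-1 (ribosomal 0.08 in each). In PDCUMNT over HM-1 and ZFCUMNT over PDCUMNT they were too (ribosomal 0.05 and 0.04). Fibroblast markers, which feeder cells would carry, had a median of 0.39 in HM-1 NT over HM-1 (10 of 13 positive), 0.49 in #4 (B6) over HM-1 and -0.01 in PDCUMNT over HM-1. Their median was highest, at 0.97 with 6 of 13 called, in B6PGA over HM-1, where the proteasome genes stood near 0. The part of feeder cells in the proteasome values was not tested.

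**Figure D1:**
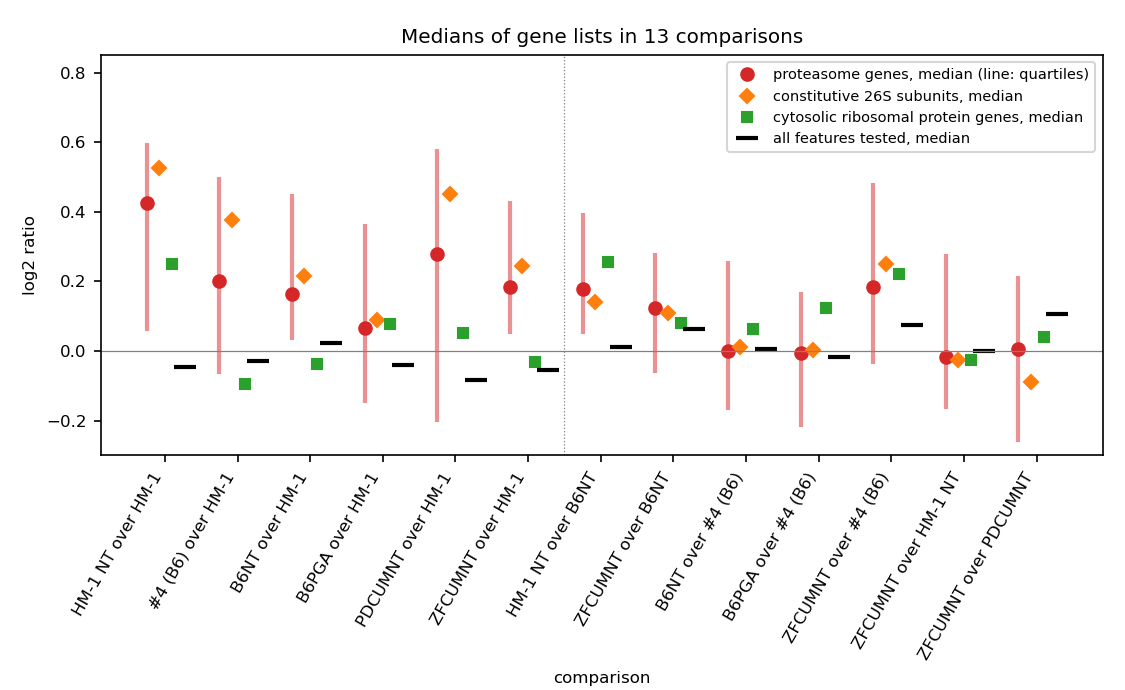
Median log2 ratio (vertical axis) of the 42 proteasome genes (red, bar from the lower to the upper quartile), constitutive 26S subunits (orange), cytosolic ribosomal protein genes (green) and all features tested (black) in each of 13 comparisons. The red and orange medians are above the black in the 6 HM-1 comparisons left of the dotted line, by most in HM-1 NT over HM-1 (0.43 and 0.53, against -0.05).

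The 6 measured genes of the alpha ring shared 1 sign in 3 of the HM-1 comparisons. They were all positive in HM-1 NT over HM-1, from 0.51 for Psma6 to 1.06 for Psma2 with a median of 0.71. All 6 were positive as well in B6NT over HM-1 (median 0.49) and in ZFCUMNT over HM-1 (median 0.47). In PDCUMNT over HM-1 5 of 6 were positive (median 0.55), and in B6PGA over HM-1 2 of 6 were (median -0.08). The exception in PDCUMNT, Psma7, was also the noisiest member of the ring, with single arrays from -5.01 to 4.93 in B6NT over HM-1. It was the lowest of all members in B6PGA over HM-1, at -1.13 ± 0.79. Over the 13 comparisons, 16 of 78 alpha ring ratios had an unadjusted p under 0.05 by limma (20.5%, against 7.79% over all features).

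Psma2 encodes an alpha ring subunit and lies on chromosome 13 (Entrez gene 19166). In HM-1 NT over HM-1 it read 1.03, 0.87, 1.27 and 1.09 on arrays 1 to 4, and the fitted ratio was 1.06 ± 0.25 (adjusted p = 0.0424). All 4 arrays were close to each other and far above 0. The call was lost without any 1 of them, at ratios of 0.999 to 1.125 and adjusted p of 0.069 to 0.24. In B6NT over HM-1 the arrays read 0.93, 1.08, 3.52 and 0.92, with a fitted ratio of 1.61 ± 0.25 (adjusted p = 2.5e-04). Array 3 stood far above the other 3, and without it the ratio was 0.96 and still called (adjusted p = 0.034).

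The other lines put Psma2 above HM-1 by similar amounts without passing the threshold. In #4 (B6) over HM-1 the arrays read 0.58, 0.87, 1.05 and 0.84, with a ratio of 0.83 (adjusted p = 0.284). In ZFCUMNT over HM-1 they read 1.15, 0.87, 0.51 and 0.76, with a ratio of 0.83 (adjusted p = 0.285). In PDCUMNT over HM-1 they read 0.15, 1.17, 0.84 and 1.04, with a ratio of 0.80 (adjusted p = 0.108). Every array of these 3 comparisons was above 0, and array 1 of PDCUMNT was the closest to it. B6PGA over HM-1 was lower, with 0.69, 0.11, 0.01 and 0.19 on its arrays and a ratio of 0.25 that did not pass. In the 7 comparisons without HM-1, Psma2 lay between -0.43 and 0.10.

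Psma1, another alpha ring subunit, was positive in all 6 HM-1 comparisons, between 0.30 and 0.92, and passed in none. Its highest ratio was 0.92 ± 0.30 in PDCUMNT over HM-1 (adjusted p = 0.126), from arrays at 0.45, 1.35, 1.12 and 0.75. Outside HM-1, 1 array dominated its value in ZFCUMNT over #4 (B6), where the arrays read 3.23, -0.23, -0.22 and 0.42. Psma4 was at 0.77, 0.80, 0.73 and 0.46 on the arrays of HM-1 NT over HM-1 (0.69 ± 0.24, adjusted p = 0.333). Its ratio in B6PGA over HM-1 was on the other side of 0, at -0.15 ± 0.24. Psma6 had the same order, with 0.51 ± 0.17 in HM-1 NT over HM-1 and -0.11 ± 0.17 in B6PGA over HM-1. Psma5 had its highest ratio in HM-1 NT over HM-1, at 0.84 ± 0.36 with arrays between 0.63 and 1.05, and did not pass (adjusted p = 0.589).

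**Figure D2:**
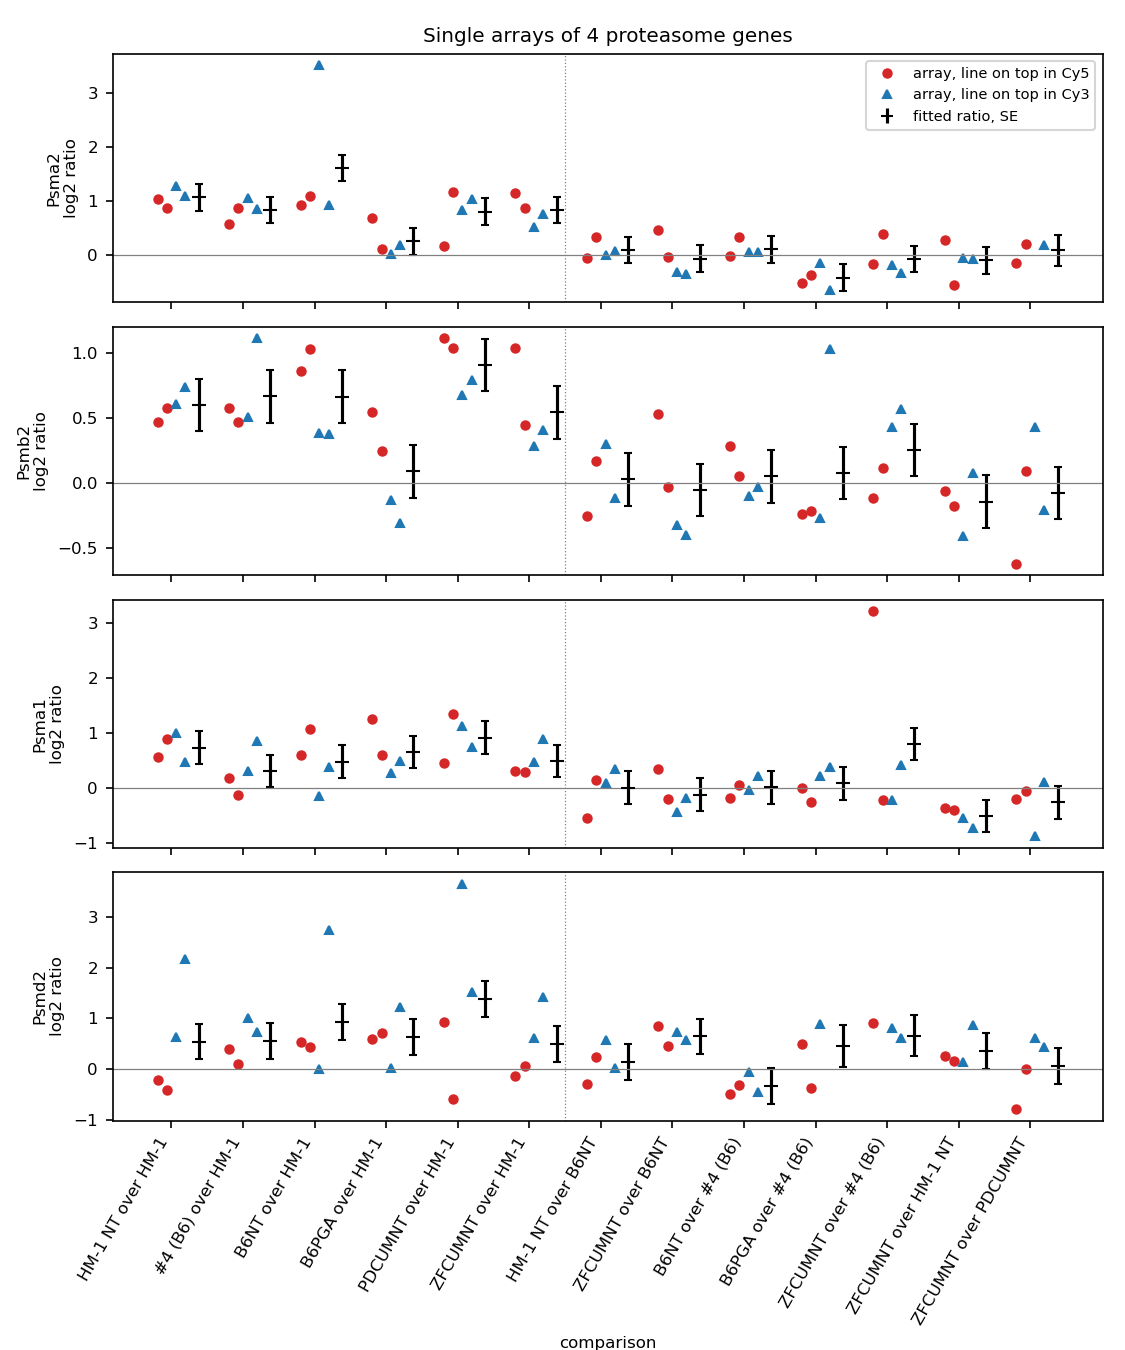
Log2 ratios (vertical axes) of Psma2, Psmb2, Psma1 and Psmd2 on the single arrays of 13 comparisons, with red circles for arrays that carried the line on top in Cy5 and blue triangles for Cy3. Black marks are fitted ratios with their SE. Psma2 is above 0 on every HM-1 array, from 0.01 to 3.52, and Psmd2 in PDCUMNT over HM-1 spreads from -0.58 to 3.66.

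Among the constitutive beta ring genes, all 7 were positive in HM-1 NT over HM-1 (median 0.55) and in PDCUMNT over HM-1 (median 0.51). In #4 (B6) over HM-1 6 of 7 were positive, and in B6NT and B6PGA over HM-1 5 of 7 were. So were 5 of the 6 tested in ZFCUMNT over HM-1. Over the 13 comparisons, 16 of their 89 ratios had an unadjusted p under 0.05 by limma (18%, against 7.79% over all features). Psmb2, a structural beta subunit on chromosome 4 (Entrez gene 26445), was called in PDCUMNT over HM-1. There it read 1.12, 1.05, 0.68 and 0.80, and the ratio was 0.91 ± 0.20 (adjusted p = 0.0143). The arrays were all well above 0, and the call was lost without array 1 (0.85, adjusted p = 0.073) or array 2 (0.87, adjusted p = 0.066).

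Psmb2 was also positive on every array of 4 more HM-1 comparisons, none of which passed. It read 0.47, 0.58, 0.61 and 0.74 in HM-1 NT over HM-1 (ratio 0.60, adjusted p = 0.314). It read 0.58, 0.47, 0.51 and 1.12 in #4 (B6) over HM-1 (ratio 0.67, adjusted p = 0.312). It read 0.87, 1.04, 0.39 and 0.38 in B6NT over HM-1 (ratio 0.67, adjusted p = 0.225). The HM-1 NT arrays were the tightest of the 3. ZFCUMNT over HM-1 had 1.04, 0.45, 0.29 and 0.41 (ratio 0.55, adjusted p = 0.619), while B6PGA over HM-1 had arrays on both sides of 0, at 0.55, 0.25, -0.13 and -0.30 (ratio 0.09). Without HM-1, Psmb2 stayed between -0.14 and 0.25.

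Psmb6 encodes the catalytic subunit that cuts after acidic residues and lies on chromosome 11 (Entrez gene 19175). It was called in ZFCUMNT over B6NT, at 1.52 ± 0.32 (adjusted p = 0.0344), from array values of 3.03, 1.37, 1.65 and 0.04. The arrays were far apart, and the call was lost without array 1 (1.14, adjusted p = 0.26) or array 3 (1.34, adjusted p = 0.23). Array 2 of this comparison is among those counted as against their dye label, at r = -0.005. Without that array the ratio was 1.71 (adjusted p = 0.04). As a difference of levels fitted per line, the ratio was 0.63 (limma adjusted p = 0.4). The gene's 2 probes differed. One read 0.57, 0.25, 0.67 and 0.49 (0.50 ± 0.28, not called), and the other read 5.49, 2.5, 2.63 and -0.41 (2.55 ± 0.62, adjusted p = 0.0985). The size of the Psmb6 ratio therefore came mainly from 1 probe, and over 49 arrays the probes correlated at r = 0.121.

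Psmb3, a structural beta subunit, had the highest ratio of any member in 4 comparisons and was called in none. In #4 (B6) over HM-1 it read 0.35, 1.44, 1.58 and 8.46, for a ratio of 2.96 ± 0.87 (adjusted p = 0.288). Array 4 stood alone, and without it the ratio was 1.18. It was also highest in HM-1 NT over HM-1 (1.32 ± 0.87), HM-1 NT over B6NT (1.90 ± 0.87) and ZFCUMNT over HM-1 NT (1.54 ± 1.01, from 3 arrays). These ratios were 0.78 without array 4, 0.90 without array 2 and 0.19 without array 3 of their comparison. Psmb7, a catalytic subunit, was the lowest member in both B6PGA over #4 (B6) and B6NT over #4 (B6). In B6PGA over #4 (B6) it read -0.50, -1.44, -1.04 and -2.79, for a ratio of -1.44 ± 0.52 that did not pass (adjusted p = 0.213). All 4 of those arrays were below 0. In B6NT over #4 (B6) its ratio of -0.65 ± 0.52 came from array 2 at -4.35, and without that array it was 0.47. Psmb5, the catalytic subunit that inhibitors of the proteasome mainly target, was highest in PDCUMNT over HM-1, at 1.22 ± 0.36 from 3 arrays that read 0.76, 2.74 and -0.17 (adjusted p = 0.0926).

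Upstream sequence was available for 36 of the 42 members (RefSeq, build GRCm38.p6). The 200 bases before the start of each of the called genes in that table are shown because the data turn on these genes, with capitals for a CCAAT box, the motif bound by NF-Y, and for the core of the antioxidant response element, TGACNNNGC, bound by Nrf1 and Nrf2. Psma2 is at chr13:14613042-14613241, Psmd2 at chr16:20651452-20651651, Psmb6 at chr11:70525157-70525356 and Psme1 at chr14:55578294-55578493, all on the plus strand. Psmb2 has no entry in the table.
Psma2: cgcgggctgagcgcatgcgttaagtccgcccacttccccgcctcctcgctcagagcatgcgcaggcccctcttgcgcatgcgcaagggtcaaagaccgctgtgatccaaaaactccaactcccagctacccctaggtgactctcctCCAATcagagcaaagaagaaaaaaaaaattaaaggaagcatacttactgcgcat
Psmd2: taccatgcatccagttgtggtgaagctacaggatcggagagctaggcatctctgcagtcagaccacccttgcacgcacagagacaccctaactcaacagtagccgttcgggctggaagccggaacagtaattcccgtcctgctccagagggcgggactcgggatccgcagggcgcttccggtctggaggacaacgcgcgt
Psmb6: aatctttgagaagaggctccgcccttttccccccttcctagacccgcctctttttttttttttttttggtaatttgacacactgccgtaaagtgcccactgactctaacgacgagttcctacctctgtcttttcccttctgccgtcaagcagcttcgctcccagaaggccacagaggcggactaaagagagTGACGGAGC
Psme1: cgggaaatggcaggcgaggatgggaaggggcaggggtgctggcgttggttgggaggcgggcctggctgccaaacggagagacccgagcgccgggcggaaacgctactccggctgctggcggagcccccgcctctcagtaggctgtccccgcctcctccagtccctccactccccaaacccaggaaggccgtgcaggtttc
The Psma2 window holds 1 CCAAT box, the Psmb6 window ends in 1 response element core, and the windows of Psmd2 and Psme1 hold neither. Both motifs were searched on both strands, where they do not overlap each other, in the 250 bases before each start. The core was in 5 of the 36 members (13.9%), against 10.1% of 27025 promoters, and the CCAAT box was in 14 (38.9%), against 34.5%. These shares were close to those of all promoters, and a match here is a match of letters only.

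The ATPases of the 19S cap, of which 5 of 6 were measured, were all positive in HM-1 NT over HM-1 (median 0.42), in PDCUMNT over HM-1 (median 0.42) and in ZFCUMNT over HM-1 (median 0.14). In B6NT over HM-1 2 of 5 were positive (median -0.03), and in B6NT over #4 (B6) none was (median -0.21). By limma none was called in any of the 13 comparisons, and 5 of their 65 ratios had an unadjusted p under 0.05 (7.69%, against 7.79% of the ratios of all features). Psmc6 came closest, with 0.82, 1.30, 0.84 and -0.03 on the arrays of HM-1 NT over HM-1 (0.73 ± 0.20, adjusted p = 0.12). Its array 4 lay at 0 while the other 3 were high. Psmc3 was the lowest member in #4 (B6) over HM-1, at -0.87, but its arrays read -4.97, 0.29, 0.64 and 0.58, and without array 1 the ratio was 0.46.

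Of the non-ATPase cap subunits, 8 of 11 were measured. Their median was 0.29 in HM-1 NT over HM-1 (6 of 8 positive), 0.51 in #4 (B6) over HM-1 (6 of 8) and 0.43 in B6NT over HM-1 (7 of 7 tested). It was 0.36 in PDCUMNT over HM-1 (5 of 8), 0.24 in ZFCUMNT over HM-1 (7 of 8) and -0.03 in B6PGA over HM-1 (4 of 8). Psmd2, a scaffold subunit of the cap on chromosome 16 (Entrez gene 21762), was called in PDCUMNT over HM-1 at 1.38 ± 0.35 (adjusted p = 0.0386). Its arrays there read 0.93, -0.58, 3.66 and 1.52, so 3 were above 0 and 1 below. The call was lost without array 1 (1.41, adjusted p = 0.092), array 3 (0.72, adjusted p = 0.47) or array 4 (1.46, adjusted p = 0.073), and without array 2 the ratio was 1.93. Psmd2 was positive in 12 of the 13 comparisons, all but B6NT over #4 (B6) at -0.33. It was positive on all 4 arrays of #4 (B6) over HM-1 (0.40, 0.10, 1.01 and 0.72), of B6NT over HM-1 (0.54, 0.43, 0.01 and 2.74) and of ZFCUMNT over B6NT (0.84, 0.45, 0.73 and 0.57), none of which passed. Psmd2 also had a dye effect of -0.36 ± 0.10, which the fit removed.

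Psmd12, a cap subunit, read 0.78, 0.99, 0.59 and 0.77 in HM-1 NT over HM-1 (0.79 ± 0.32, adjusted p = 0.568), with all arrays close together. Its highest ratio was 1.12 ± 0.37 in ZFCUMNT over PDCUMNT, from 3 arrays at 1.51, 2.73 and -0.48 (adjusted p = 0.148). Psmd14, the deubiquitinase of the cap, was measured on 36 arrays and tested in 7 comparisons. It was the highest member in B6PGA over HM-1, where it read -0.12, 2.56, 1.31 and 5.60 (2.34 ± 0.79, adjusted p = 0.299), and the lowest in PDCUMNT over HM-1, at -1.28 ± 0.92 from 3 arrays. Neither value passed, and the arrays of both were widely spread. The other non-ATPase subunits ranged over the 13 comparisons from -0.60 (Psmd6) to 1.09 (Psmd7).

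The inducible and tissue-specific beta subunits had medians near or below 0 over HM-1. The median was 0.09 in HM-1 NT over HM-1, where 3 of 4 were positive, and -0.55 in PDCUMNT over HM-1, where 0 of 4 were. In #4 (B6) over HM-1 it was -0.12. No member of the group was called by limma in any comparison. Of their 47 ratios, 2 had an unadjusted p under 0.05 (4.26%, against 7.79% over all features). Psmb8, the inducible counterpart of Psmb5, was highest in ZFCUMNT over PDCUMNT at 1.40 ± 0.41 (adjusted p = 0.0925), where its arrays read 0.79, 4.59, 0.48 and -0.28. Array 2 stood apart, and without it the ratio was 0.41 (adjusted p = 0.81). Without array 4 it was 1.87 and called (adjusted p = 0.023). Psmb8 was also the highest member in B6PGA over #4 (B6), at 0.55 ± 0.41, a value that turned to -0.06 without array 3. Psmb10, the inducible counterpart of Psmb7, ranged from -0.40 to 0.68, and Psmb9, that of Psmb6, from -0.86 to 0.32.

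Psmb11, the subunit of the thymus proteasome, was negative in all 6 HM-1 comparisons, from -0.97 to -0.12, and was measured on 44 arrays. It was the highest member in ZFCUMNT over #4 (B6), at 1.64 ± 0.68 from 3 arrays that read 3.78, 2.21 and -1.42 (adjusted p = 0.263), and without array 4 it was 2.99 and called (adjusted p = 0.025). It was also the highest in B6NT over #4 (B6), at 0.70 ± 0.59, and the lowest in ZFCUMNT over PDCUMNT, at -1.09 ± 0.68 from 3 arrays. Single arrays of Psmb11 often lay on both sides of 0 within a comparison, as in ZFCUMNT over HM-1 (-1.68, 0.52, -0.92 and 1.58).

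Of 10 listed partners in antigen processing, 6 had a probe. Over the 13 comparisons 1 of their 75 ratios was called, beside 1096 of 205999 for all features. The call was for B2m, the light chain of MHC class I, in B6PGA over HM-1, where 0.494% of all features were called. B2m read 1.27, 1.59, 1.24 and 1.31, with a ratio of 1.35 ± 0.32 (adjusted p = 0.0332). The class I heavy chain H2-K1 had 0.99 ± 0.36 there and did not pass (adjusted p = 0.357). Irf1 stood at 0.43, Erap1 at 0.01, Tapbp at -0.12 and Tap1 at -0.25 there, none of them called. Psmb8 stood at 0.23 and Psmb10 at -0.37 in the same comparison, neither of them called.

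Among the assembly chaperones, 5 of 7 were measured and limma called none in a single comparison. Of their 58 ratios, 8 had an unadjusted p under 0.05 (13.8%, against 7.79% over all features). Their median was 0.11 in HM-1 NT over HM-1 (3 of 5 positive) and 0.11 in PDCUMNT over HM-1 (3 of 5). Psmd5, a chaperone of the cap's ATPase ring, was at 0.92, 0.81, 0.30 and 0.38 in PDCUMNT over HM-1 (0.60 ± 0.19, adjusted p = 0.123). Psmd10, also known as gankyrin, was the lowest member in HM-1 NT over B6NT, at -0.61, -0.65, -1.87 and -0.37 (-0.88 ± 0.30, adjusted p = 0.184). It was negative on all 4 arrays of ZFCUMNT over B6NT as well (-0.32, -0.81, -0.82 and -0.87) and positive on all 4 of B6NT over HM-1 (0.97, 0.73, 0.60 and 0.30). B6NT was thus the high line for Psmd10 in these 3 comparisons, which share it. Psmd9 had the fewest arrays of any member, 34, and was the lowest member in HM-1 NT over HM-1 (-0.57 ± 0.67, 3 arrays), B6NT over HM-1 (-1.08 ± 0.58) and ZFCUMNT over HM-1 NT (-1.10 ± 0.67, 3 arrays). Without 1 array Psmd9 ran from -1.85 to -0.14 in B6NT over HM-1 and from -1.37 to -0.55 in ZFCUMNT over HM-1 NT. Psmg1 ranged from -0.24 to 0.87 and Psmg2 from -0.73 to 0.57.

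Psme1 and Psme2 form the PA28 activator ring, which interferon induces and which opens the core barrel. Psme1 on chromosome 14 (Entrez gene 19186) was called in ZFCUMNT over PDCUMNT, at 1.15 ± 0.23 (adjusted p = 0.00996). The arrays read 1.54, 0.25, 0.90 and 1.91, all above 0 with array 2 the lowest. Without array 4 the ratio was 0.85 and not called (adjusted p = 0.065). Over HM-1, however, Psme1 stood at 0.11 in PDCUMNT and at 0.14 in ZFCUMNT. As a difference of levels fitted per line, ZFCUMNT over PDCUMNT was 0.68 and not called (limma adjusted p = 0.14). In HM-1 NT over B6NT the arrays read 0.82, 0.73, 0.70 and 0.74 and were nearly equal (0.75 ± 0.23, adjusted p = 0.116). Psme1 was also positive on all 4 arrays of #4 (B6) over HM-1 (0.68, 0.41, 1.34 and 0.36; ratio 0.70, adjusted p = 0.467). In ZFCUMNT over #4 (B6) it was the lowest member, at -0.50 ± 0.23.

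Psme2, the partner of Psme1 in the ring, read 0.52, 0.49, 0.53 and 0.83 in HM-1 NT over HM-1 (0.59 ± 0.31) and 0.46, 0.73, 0.44 and 1.21 in HM-1 NT over B6NT (0.71 ± 0.31). All 8 of these values were above 0, and neither ratio passed (adjusted p = 0.841 and 0.385). In ZFCUMNT over PDCUMNT, where Psme1 was called, Psme2 stood at 0.06 ± 0.31. The nuclear activators Psme3 and Psme4 ranged from -0.77 to 0.93 and from -0.55 to 0.69, and the inhibitor Psmf1 from -0.37 to 0.80, with no call. Of the members that are no subunits, Psmc3ip, a recombination factor, was the lowest member in ZFCUMNT over HM-1 through array 3 alone. Its arrays read 0.51, 0.61, -4.37 and 0.53, and its ratio of -0.68 became 0.50 without that array. It was also the lowest in ZFCUMNT over B6NT, at -1.03 ± 0.74 from 3 arrays, and 0.41 without array 2. Psme3ip1, averaged over 4 probes, ranged from -0.46 to 0.18. Its single probes had ratios from -1.27 (ZFCUMNT over HM-1 NT) to 1.23 (ZFCUMNT over PDCUMNT). Pairs of these probes correlated at r from -0.261 to 0.067.

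**Figure D3:**
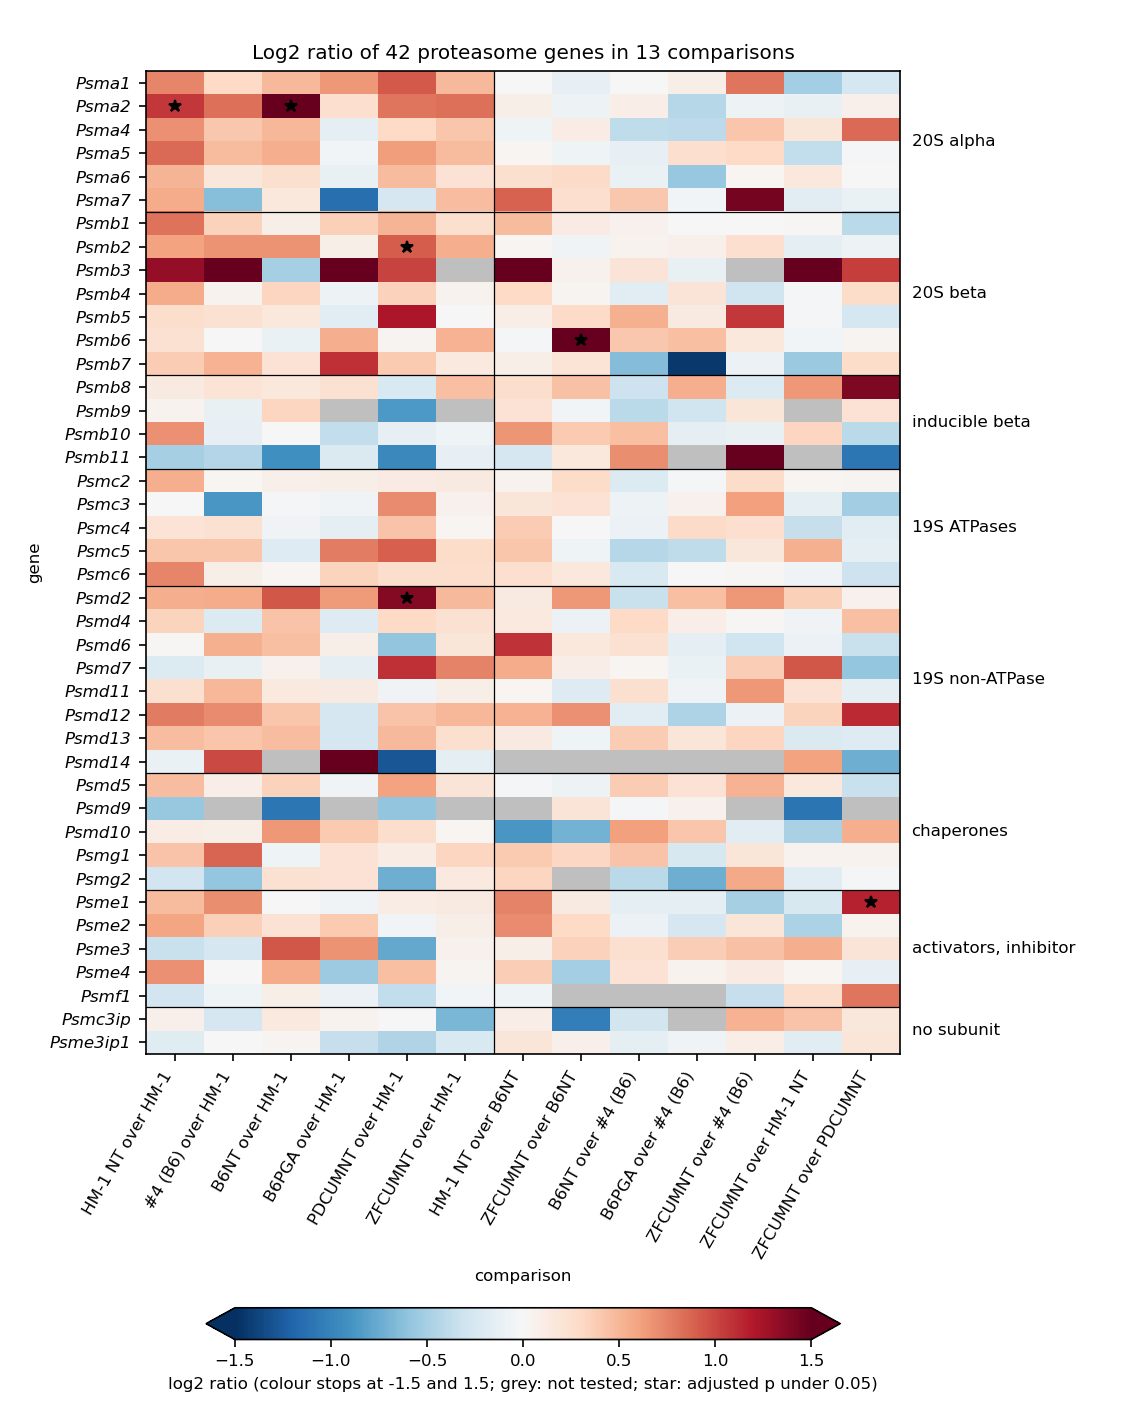
Fitted log2 ratio (colour, red positive and blue negative) of 42 proteasome genes in rows, grouped by role, in 13 comparisons in columns, with HM-1 comparisons left of the vertical line. Stars mark the 6 calls (Psma2 in 2 comparisons, Psmb2, Psmd2, Psmb6 and Psme1 in 1 each) and grey cells were not tested. The alpha ring is red throughout HM-1 NT over HM-1, where it runs from 0.51 to 1.06.

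All 52 arrays were also fitted with 1 level for each line, relative to the mean of the 7 lines, so that every array that holds a line informs its level. By limma's moderated F-test 11 of 42 members differed among lines, against 2.93% of 16985 features. They were Psma2 (F = 16.1, adjusted p = 2.5e-07), Psmb2 (F = 9.59, adjusted p = 1.1e-04), Psmd2, Psma6, Psmd5, Psma4, Psme1, Psma1, Psmd12, Psmd10 and Psmb1 (adjusted p from 0.0069 to 0.0488 for the last 9). The call of Psmb1 was lost without any 1 of 35 arrays (adjusted p from 0.051 to 0.12), and that of Psmd10 without any 1 of 4, namely array 1 of B6NT over HM-1, array 3 of HM-1 NT over B6NT, array 2 of ZFCUMNT over B6NT and array 4 of B6NT over #4 (B6) (adjusted p from 0.05 to 0.056). Under the reading Cy5 over Cy3, HM-1 had the lowest level of the 7 lines for Psma2, Psmb2, Psmd2, Psma1 and Psmb1. Over all members HM-1 was the lowest line for 15 of 42 (35.7%), and for 6.45% of all features. With the sign turned, HM-1 would be lowest for 3 members (7.14%, against 9.2% of all features) and highest for 15. HM-1 NT was the highest for 14 (33.3%), against 17.9% of all features. ZFCUMNT was the lowest for 0 of the 42, and for 6.02% of all features, the smallest share of any line.

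The Psma2 level was -0.77 ± 0.09 in HM-1 and -0.39 ± 0.16 in B6PGA, and the other 5 lines lay between 0.06 (PDCUMNT) and 0.41 (B6NT). HM-1 stood 0.38 below its nearest neighbour, B6PGA, while B6NT and HM-1 NT (0.36) at the top were within their errors. For Psmb2, HM-1 was at -0.50 ± 0.07, B6PGA next at -0.18 ± 0.13, and PDCUMNT highest at 0.30 ± 0.13. Psmd2 ran from -0.65 ± 0.12 in HM-1 to 0.50 ± 0.23 in PDCUMNT, with B6NT second lowest at -0.17 ± 0.16. Psma1 ran from -0.51 ± 0.10 in HM-1 to 0.37 ± 0.19 in PDCUMNT.

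Other called members had other lines at the bottom. PDCUMNT was the lowest line for 9 of all 42 members (21.4%, against 29.4% of all features). B6PGA was the lowest for 10 (23.8%, against 20.7%) and #4 (B6) for 4 (9.52%, against 13%). B6PGA was lowest for Psma6 (-0.40 ± 0.11), Psma4 (-0.35 ± 0.16) and Psmd12 (-0.42 ± 0.21), with HM-1 second lowest for Psma4 and Psmd12 within the errors. PDCUMNT was lowest for Psme1 (-0.56 ± 0.16), whose highest level was in HM-1 NT (0.43 ± 0.13), and for Psmd10 (-0.34 ± 0.19), whose highest was in B6NT (0.59 ± 0.14). Psmd5 was lowest in #4 (B6) (-0.31 ± 0.09) and highest in PDCUMNT (0.41 ± 0.12). The median level of the 26 constitutive subunits was -0.25 in HM-1 (24 below 0), -0.09 in B6PGA (20 below 0) and 0.22 in HM-1 NT (4 below 0). For ribosomal protein genes these medians were -0.04, 0.05 and 0.20. Fibroblast markers had medians of -0.27 in HM-1, 0.45 in B6PGA, 0.12 in HM-1 NT, -0.35 in PDCUMNT and -0.32 in B6NT. Pluripotency markers had medians of -0.02 in HM-1 and -0.38 in #4 (B6). The lowest median was thus in HM-1 for the constitutive subunits and in PDCUMNT for the fibroblast markers, and the part of other cells in the levels was not tested.

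The line levels were refitted without whole comparisons, alternatives chosen after the data were seen. Psma2 and Psmb2 were called in all 15 refits, with HM-1 levels from -0.81 to -0.67 for Psma2 and from -0.58 to -0.45 for Psmb2. Psmd2 and Psmd5 were called in 14, Psme1 in 13, Psma4 in 12, Psma1 and Psma6 in 11, Psmd12 in 9, and Psmd10 and Psmb1 in 4. Without the 5 comparisons that hold an array against its dye label, 32 arrays remained, 6 members were called beside 2.95% of all features, and HM-1 was lowest for 7 members (16.7%, against 3.87% of all features). HM-1 NT was highest for 9 members without HM-1 NT over B6NT (21.4%, against 20% of all features). Without HM-1 NT over HM-1 the count called was 5, beside 2.09% of all features. It was 7 without PDCUMNT over HM-1 (2.2% of all features) and 7 without HM-1 NT over B6NT (2.27%). Without HM-1 NT over HM-1 and #4 (B6) over HM-1, which had the highest correlation between dye orientations, it was 4 (1.82%). The member median in HM-1 was between -0.21 and -0.15 in all 15 refits. Triples of comparisons that close on each other gave a further check. Over 9 triples the sum of ratios missed 0 by a median of 0.13 for Psma2 and 0.10 for Psmb2. The median was 0.52 for Psmd2, 0.38 for Psme1 and 0.43 for Psmb6. The largest misses were 0.71, 0.66, 1.08, 1.13 and 1.78 in that order. Psmb6 in ZFCUMNT over B6NT was 1.52 directly, but -0.25 by way of #4 (B6) and -0.06 by way of HM-1 NT. The largest miss of Psme1 came from the triple of HM-1, PDCUMNT and ZFCUMNT, which holds its called ratio.

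**Figure D4:**
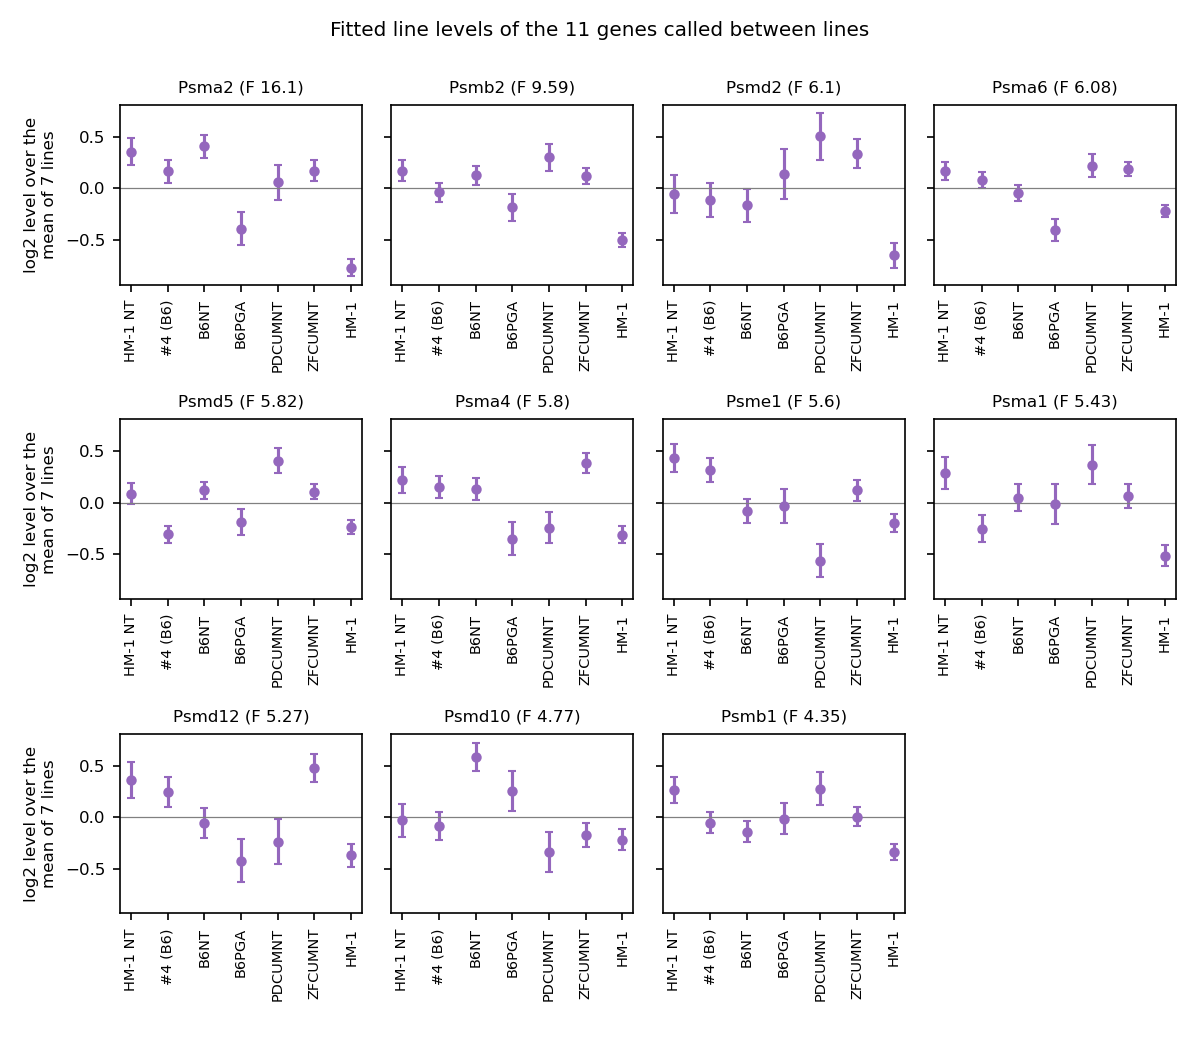
Fitted log2 level over the mean of the 7 lines (vertical axes, points with SE) for the 11 members called between lines, in order of F. HM-1, at the right of each panel, is the lowest line for Psma2 (-0.77), Psmb2 (-0.50), Psmd2 (-0.65), Psma1 (-0.51) and Psmb1 (-0.34).

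An NT line was set against the line of the same name in HM-1 NT over HM-1 and in B6NT over #4 (B6), which share no line. Their mean, the shared NT contrast, had 29 of 40 members positive and a median of 0.22, and all 6 alpha ring genes were positive (median 0.37). The alpha ring median was 0.71 in HM-1 NT over HM-1 and -0.05 in B6NT over #4 (B6), where 3 of 6 were positive. The constitutive subunits had 0.53 in HM-1 NT over HM-1 and 0.01 in B6NT over #4 (B6), where 13 of 25 were positive. No member was called by limma, 6 had an unadjusted p under 0.05 (15%, against 5.31%), and 0.151% of all features were called. The difference of these comparisons, HM-1 NT over HM-1 minus B6NT over #4 (B6), had 30 of 40 positive and a median of 0.40. No member passed that test of the difference by limma, 7 had an unadjusted p under 0.05 (17.5%, against 5.18%), and 0.197% of all features were called. With line levels in place of single comparisons, the shared contrast was called for Psma2 (0.68, adjusted p = 0.00129) and Psmb2 (0.42, adjusted p = 0.0462), and the difference for Psma2 (0.88, adjusted p = 0.0158) and Psme1 (1.03, adjusted p = 0.0039). Over all 15227 features, line levels called 52 in the shared contrast and 130 in the difference, where the single comparisons called 23 and 30.

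Other genes of the ubiquitin and proteasome system were listed by their known roles. Of 26 proteasome-linked genes, such as the maturation factor Pomp and the regulator Nfe2l1, 14 had a probe. None was called by limma in any of the 13 comparisons. Of their 168 ratios, 17 had an unadjusted p under 0.05 (10.1%, against 7.79% over all features). Their median was 0.15 in HM-1 NT over HM-1, with 9 of 14 positive, and 0.11 in PDCUMNT over HM-1, with 7 of 11 tested. The COP9 signalosome, a relative of the 19S cap, had 7 of 9 genes on the array, with medians of 0.09 and 0.20 in the same comparisons. It had no call by limma and 5 of 84 ratios at an unadjusted p under 0.05 (5.95%, against 7.79%). The 3 measured genes of ubiquitin-like proteins and activating enzymes, Nedd8, Sumo2 and Uba6, were all positive in HM-1 NT over HM-1 (median 0.35). Limma called none of them, and 5 of 39 ratios had an unadjusted p under 0.05 (12.8%, against 7.79%). These medians were below those of the constitutive proteasome subunits in the same comparisons. The medians of these lists were below them in #4 (B6) and ZFCUMNT over HM-1 as well. In B6NT over HM-1, however, the COP9 median was higher (0.38, against 0.22 for the constitutive subunits). In B6PGA over HM-1 the proteasome-linked median was higher (0.23, against 0.09).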

How the data were processed

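The authors deposited 1 table of ratios for 20794 probes on 52 arrays. The deposited values were read as log2, because on 52 of 52 arrays a group of 20 to 174 probes lay exactly log2(100000) above the array's own constant value, and those top values were treated as not measured. Scanner, background correction, normalization and numerator dye are not given in the sources used here. A single symbol was listed for 12771 probes and none for 8023. Probes were averaged per gene (9030 genes, 17053 features with unnamed probes).

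Ratios were turned by the dye labels to the second-named line over the first and fitted together with limma 3.58.1 (R 4.3.3), giving each comparison a coefficient of its own and each feature a dye effect. A feature was tested where at least 3 of the 4 arrays measured it, in both dye orientations (15067 to 16493 features per comparison), with Benjamini-Hochberg adjustment over all of them. A second fit gave 1 level per line. The scripts were tested on simulated data. The number of arrays limits the precision.

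Named were the members called in a comparison or NT contrast, the highest and lowest member of each comparison, every member by its range, and called genes of the pathway lists. Further members were named from the line fit and for their single arrays after their values were seen. Members, lists and roles were chosen with earlier results of these data known. Alternatives varied the dye term, top values, filter, centring, scaling, weights, probes, joint fit, turning and arrays. Promoter sequences are RefSeq's (GRCm38.p6).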

Additional observations from a re-analysis of the deposited data

Results flagged for a closer look

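In 4 of 35 sets of 4 arrays, 1 array stood further from the other 3 than the 95% critical value of Dixon's test allows. Chance gives this in about 1 of 20 sets taken at random. Many of the 35 belong to members named because they were highest or lowest in a comparison, so that rate does not apply to them. Psma2 in B6NT over HM-1 was at 3.52 on array 3, where the other arrays lay between 0.92 and 1.08, and its ratio was 1.61 with that array and 0.96 without it. Psmb3 in #4 (B6) over HM-1 was at 8.46 on array 4, with the others between 0.35 and 1.58. Psmc3 in #4 (B6) over HM-1 was at -4.97 on array 1, with the others between 0.29 and 0.64. Psmc3ip in ZFCUMNT over HM-1 was at -4.37 on array 3, with the others between 0.51 and 0.61. The cause of these values was not tested.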

How the results depend on the processing

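With all arrays kept, 264 counts and medians recomputed under other settings stayed within 1.5 times the count or the spread of the arrays, and the 38 that did not are given here. The members called in HM-1 NT over HM-1 numbered 0 without the dye term and when fitted alone, 6 with array weights and 4 with line levels, where the median was 0.361. In #4 (B6) over HM-1 they numbered 3 with array weights and 2 with line levels or unturned. In B6NT over HM-1 they numbered 0 alone or unturned, 3 with weights, 3 with line levels and 2 with arrays scaled to equal spread. In PDCUMNT over HM-1 they numbered 1 without the dye term, with weights or scaled, 0 alone or unturned, and 5 with line levels. In ZFCUMNT over HM-1 they numbered 2 with weights and 6 with line levels (median 0.315). Calls over all features moved too: those of HM-1 NT over HM-1 were 190 with weights, 119 with line levels and 0 alone, against 41. Those of ZFCUMNT over HM-1 were 219 with weights and 195 with line levels, against 16. Those of #4 (B6) over HM-1 were 118 with weights, 130 with line levels and 918 unturned, against 36. In B6NT over HM-1 they were 303 with weights, 136 with line levels, 328 scaled, 56 unturned and 0 alone, against 28. In PDCUMNT over HM-1 they were 97 without the dye term, 152 with weights, 145 scaled and 272 with line levels, against 180. Unturned they were 468 there, and alone 0. Unturned ratios gave 1 member call in B6PGA over HM-1, 2 in ZFCUMNT over #4 (B6) and 1 in ZFCUMNT over HM-1 NT. Over all features they gave 287, 811 and 562 calls there, against 80, 147 and 44. The single call of ZFCUMNT over B6NT became 0 without the dye term, alone, with line levels, unturned and with probes tested singly. That of ZFCUMNT over PDCUMNT became 2 with top values kept and 0 alone, with weights or with line levels. Over all features these settings gave 182, 0, 14 and 14 calls there, against 118. Line levels gave 2 members in the shared NT contrast and 2 in the NT difference, where weights gave 2 and scaling 1. Over all features, weights gave 108 calls and scaling 109 in the NT difference, against 30. The alternatives chosen after the data were seen moved 7 values and left 38: members called among lines to 5, 7, 7, 6 and 4, those lowest in HM-1 to 7 and those highest in HM-1 NT to 9, under the omissions named in the report. The causes were not tested.

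Leaving out 1 array gave 0 to 0 member calls in HM-1 NT over HM-1 and 0 to 2 in PDCUMNT over HM-1. It gave 0 to 1 in ZFCUMNT over B6NT, 0 to 2 in ZFCUMNT over #4 (B6) and 1 to 2 in ZFCUMNT over PDCUMNT. Calls over all features in these refits are not given here, so these counts cannot be set beside that share. Medians ran from 0.378 to 0.540 in HM-1 NT over HM-1 and from 0.094 to 0.324 in #4 (B6) over HM-1. The members called among lines ran from 9 to 11, beside 430 to 539 calls over all features. Signs turned without 1 array for Psmc3 in #4 (B6) over HM-1 (-1.337 to 0.464), Psmc3ip in ZFCUMNT over HM-1 (-1.183 to 0.497) and over B6NT (-1.103 to 0.412), Psmb7 in B6NT over #4 (B6) (-1.208 to 0.471) and Psmb8 in B6PGA over #4 (B6) (-0.058 to 0.914). With the replicate block no comparison's count moved and 10 members differed among lines (Psmb1 lost, adjusted p = 0.053). Arrays of the same number correlated at a median of 0.1 (lowest -0.043), those of different numbers at -0.049, and 25 of 52 correlated best with their own number, a hint from the data and not the design. No label ties a number to a shared batch and not every same-number correlation was over 0.1, so arrays were not treated as paired.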
